A study of Mus musculus with 10 samples.

Results

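Immediate early genes were read in CX3CR1+ cells that do or do not make arginase 1 (ARG1) in the inflamed spinal cord. The set held 10 genes, *Fos*, *Fosb*, *Jun*, *Junb*, *Egr1*, *Egr2*, *Egr3*, *Ier2*, *Nr4a1* and *Dusp1*, which were found by their gene names among 55487 genes of the deposited count table. Of these, 9 encode transcription factors or nuclear regulators, and *Dusp1* encodes a phosphatase that is induced with them. All 10 passed the filter on low counts, which left 13740 genes for testing. The libraries came from 5 male C57BL/6 mice of 8 to 12 weeks that carried the Arg1tm1Lky reporter, which places a yellow fluorescent protein (YFP) under control of *Arg1*. All 5 mice were at the peak of experimental autoimmune encephalomyelitis (EAE), an immune attack on myelin that serves as a model of multiple sclerosis. From each spinal cord, viable CD3-Ly6G-CD45+CX3CR1+ cells were sorted into 200000 YFP+ cells (ARG1+) and 100000 YFP- cells (ARG1-), so that the groups shared genotype, disease and animals (m2, m6, m234, m235 and m236) and differed in YFP and in the number of cells taken. This gate holds monocyte-derived cells, border-associated macrophages and microglia together, and the reporter marks *Arg1* expression rather than a cell type. No healthy or undigested tissue was part of the comparison.

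Immediate early genes are transcribed within minutes of a stimulus by factors that are already present at their promoters, without prior protein synthesis, and their RNAs decay quickly. Growth factors, cytokines, microbial products and calcium signals reach them through MAP kinases, serum response factor with its partners, and CREB. FOS and JUN proteins pair into the AP-1 transcription factor, EGR proteins and NR4A1 bind DNA as separate families, and DUSP1 dephosphorylates MAP kinases and so limits the signal. In microglia and macrophages the same genes are also known to rise while tissue is digested and cells are sorted. The spinal cords here were digested with enzymes, and the methods used here name no inhibitor of transcription, so that RNA made in the animal and RNA made during isolation cannot be told apart in either group.

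The library totals were 28870482 to 33826355 counts in ARG1+ cells and 8396863 to 35455643 in ARG1- cells. The lowest total was that of the ARG1- library of m234, and all others reached at least 28212174. *Arg1*, the gene behind the sort, was higher in ARG1+ cells by 5.45 on the log2 scale (SE 0.213, FDR = 1.07e-07). Monocyte and macrophage markers were the most abundant of the marker lists in every library (summed 12791 to 19202 CPM, read counts scaled to library size), led by *Lyz2*, and no marker of T and NK cells or neurons passed the filter. All 3 border-associated macrophage markers tested were called higher in ARG1+ cells, and 5 of 6 dendritic cell and 2 of 2 B and plasma cell markers were called lower. Of 8 microglia markers, 0 were called without a block for the animal, and with it 6 were called lower and 0 higher in ARG1+ cells, also without m234. Their sum was lower in the ARG1+ library of 5 of 5 animals, at 753 to 1126 CPM against 809.5 to 1451 CPM in ARG1- libraries other than that of m234, which reached 2655 CPM. Of 10 monocyte and macrophage markers, 3 were called higher and 1 lower, and 4 and 6 with the block. Over all tested genes, 6.82% were called higher and 6.15% lower, and 16.8% and 18.3% with the block. The part of these markers in the members' differences was not tested, and in these bulk samples fewer cells of a type and less RNA per cell cannot be told apart.

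The promoters of these genes are where stimulus signals meet. RefSeq windows from 250 bases before to 50 bases after the start site (GRCm38.p6) were at hand for 7 of the 10 genes, *Fos*, *Fosb*, *Jun*, *Junb*, *Egr2*, *Nr4a1* and *Dusp1*. The core of the CREB element, TGACG, was found on either strand in 5 of the 7 windows, those of *Fos*, *Fosb*, *Junb*, *Nr4a1* and *Dusp1*, and in 20.8% of all 32851 windows. The palindrome TGACGTCA, which holds the core on both strands, was found in *Dusp1* only among the 7, at bases -143 to -136, and in 1.79% of all windows. Counted from the start site as base 0, the cores of *Fos* began at bases -129 and -66 and the TATAAA box at -33. The 150 bases before the start site are shown for these 5 genes, with *Jun* beside them as a window without the core. They are printed 5′ to 3′ on the gene's strand with the cores in capitals. *Fos* lies at chr12:85473740-85473889 on the plus strand, *Fosb* at chr7:19310046-19310195, *Junb* at chr8:84978749-84978898, *Dusp1* at chr17:26508473-26508622 and *Jun* at chr4:95052223-95052372 on the minus strand, and *Nr4a1* at chr15:101266696-101266845 on the plus strand.
Fos: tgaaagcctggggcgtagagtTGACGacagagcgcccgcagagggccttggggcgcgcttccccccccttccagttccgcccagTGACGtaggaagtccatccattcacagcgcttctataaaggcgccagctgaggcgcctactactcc
Fosb: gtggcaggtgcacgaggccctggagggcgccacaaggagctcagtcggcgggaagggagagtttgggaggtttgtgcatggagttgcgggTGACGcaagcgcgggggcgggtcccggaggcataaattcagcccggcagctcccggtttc
Junb: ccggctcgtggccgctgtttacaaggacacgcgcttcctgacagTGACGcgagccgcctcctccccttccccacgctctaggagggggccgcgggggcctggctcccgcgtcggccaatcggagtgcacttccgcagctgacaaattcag
Nr4a1: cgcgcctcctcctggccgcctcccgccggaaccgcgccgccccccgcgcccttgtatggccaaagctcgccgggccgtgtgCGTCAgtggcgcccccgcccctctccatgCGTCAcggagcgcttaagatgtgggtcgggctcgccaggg
Dusp1: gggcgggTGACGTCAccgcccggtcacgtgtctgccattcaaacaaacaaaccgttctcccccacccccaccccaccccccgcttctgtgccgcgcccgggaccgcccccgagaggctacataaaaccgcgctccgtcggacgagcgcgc
Jun: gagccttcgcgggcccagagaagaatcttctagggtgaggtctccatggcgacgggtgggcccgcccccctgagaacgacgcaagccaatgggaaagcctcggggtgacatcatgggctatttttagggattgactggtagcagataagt
The letters are a description of these windows and not evidence of binding. The EGR motif GCGNGGGCG was found in 2 of the 7 windows (*Fosb* and *Nr4a1*) and in 5.55% of all windows, TATAAA in 2 (*Fos* and *Junb*) against 13.6%, and the ETS core CCGGAA in 1 (*Nr4a1*) against 14.9%. The TATAAA of *Junb* lay at bases 0 to 5, on the start site rather than before it as in *Fos*. The AP-1 motif TGANTCA (7.81% of all windows), the NR4A motif AAAGGTCA (1.51%) and the CArG box of serum response factor (1.63%) were not found in the 7 windows. All motifs were searched on both strands as exact patterns, so variants of a motif and sites beyond the windows were not counted. In the coordinates of the table (GRCm38), *Fos* spans chr12:85473890-85477273, *Fosb* chr7:19302696-19310051, *Egr2* chr10:67535475-67542188, *Egr3* chr14:70077203-70082614 and *Ier2* chr8:84661331-84662854. Within a GENCODE basic annotation of this build, no exon of the 10 genes overlapped an exon of another gene on either strand. *Jun* and *Junb* nevertheless shared some 50-base stretches of their transcripts with other genes, as given below. In genomic coordinates, the RefSeq start site minus that of the table was 30 bases for *Junb*, 12577 for *Nr4a1* and -53656 for *Dusp1*.

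By direction and by edgeR's call without the animal as a block, the members were grouped as follows. *Fos* and *Fosb* were called higher in ARG1+ cells, by 1.30-fold and 1.26-fold. *Junb*, *Egr2*, *Nr4a1* and *Dusp1* were also higher in each of the 5 animals and were called by edgeR with the animal as a block but not without it. *Jun*, *Egr1*, *Egr3* and *Ier2* had lower fitted values in ARG1+ cells without the block, and none of them was called in that fit. They did not act alike, since *Egr1* was higher in 4 of 5 animals and *Ier2* lower in 5 of 5. With the block *Egr1* had a fitted value of 0.025 (FDR = 0.876) and *Ier2* was called lower. With edgeR's quasi-likelihood test at an FDR below 0.05 over all 13740 genes, 2 members were called higher, where 6.82% of all tested genes were, and 0 were called lower, where 6.15% were. At an unadjusted p under 0.05, 4 members were higher and 0 lower, where 15.0% of all tested genes were higher and 15.0% lower. DESeq2 called 4 higher (*Fos*, *Fosb*, *Junb* and *Egr2*; 9.29% of all tested genes) and 0 lower (9.51%). The median log2 fold change was 0.19 over the members and -0.0022 over all tested genes. No member passed the additional limit of an absolute log2 fold change above 1, which 1.45% of tested genes did. With the animal as a block, 6 members were called higher, where 16.8% of genes were, and 1 (*Ier2*) lower, where 18.3% were. The microglia markers moved under the same block, as given above.

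**Figure D1:**
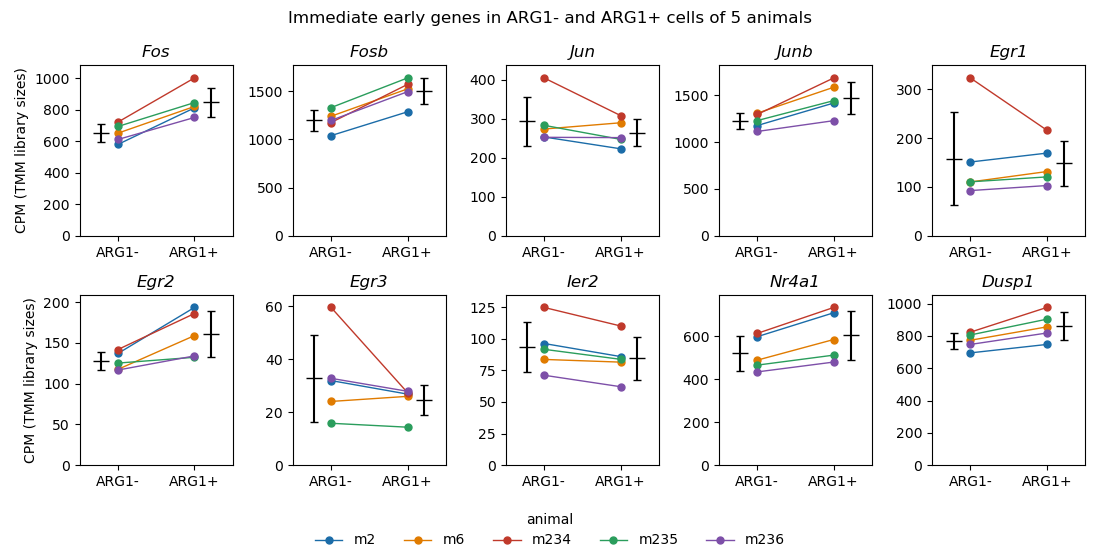
CPM of each gene on a linear axis from 0, with a line for each animal from its ARG1- to its ARG1+ library and the group mean ± SD (n = 5) at the sides. The lines of *Fos*, *Fosb*, *Junb*, *Egr2*, *Nr4a1* and *Dusp1* rise in 5 of 5 animals, those of *Ier2* fall in 5 of 5, and the ARG1- library of m234 is the highest point for *Jun*, *Egr1*, *Egr3* and *Ier2*.

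Among the FOS proteins, which form AP-1 only with a partner, *Fos* (ENSMUSG00000021250) gave 811, 819.7, 1001, 844 and 749.9 CPM in the ARG1+ libraries of m2, m6, m234, m235 and m236, the order kept for all values below. The ARG1- libraries gave 579.5, 651, 721, 693 and 611 CPM. Every ARG1+ library was above every ARG1- library, which held for 1 of the 10 members and for 6.15% of tested genes in this direction. The means were 845 ± 93.6 CPM (SD, n = 5) and 651 ± 57.9 CPM, and the log2 fold change was 0.38 (SE 0.0866, FDR = 0.0160 by edgeR). The 2-sided exact permutation test of log2 CPM over the libraries gave p = 0.00794, the smallest it can give with 5 against 5. After adjustment over all tested genes this was 0.0699, which was also the value of *Arg1* and the lowest of any gene. No gene could therefore pass 0.05 by this adjusted test. Without both libraries of m2 the FDR of *Fos* was 0.0734, and without both of m6 it was 0.0759. The block gave 0.37 (SE 0.0435, FDR = 1.61e-04), and was past the threshold with any animal left out.

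*Fosb* (ENSMUSG00000003545), the second FOS gene, gave 1287, 1525, 1572, 1639 and 1496 CPM in ARG1+ and 1040.4, 1242, 1176, 1331 and 1198 CPM in ARG1- libraries. The ARG1+ value was above the ARG1- value of the same animal in 5 of 5 animals, but the groups overlapped, because the ARG1+ library of m2 was below the ARG1- library of m235. The log2 fold change was 0.33 (SE 0.0828, FDR = 0.0240 by edgeR), with a 2-sided exact permutation p of 0.0159. This call was the less stable of the pair, since the FDR passed 0.05 in 5 of 15 leave-outs, which removed 1 library (ARG1- of m2, 0.0548, and ARG1+ of m6, 0.0555) or an animal (m234, 0.0615, m236, 0.0823, and m6, 0.0983). With the block it was 0.33 (SE 0.0382, FDR = 1.61e-04).

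The JUN genes did not move with them in one direction. *Junb* (ENSMUSG00000052837), a JUN protein that is a weaker activator than JUN in many settings, gave 1419, 1587, 1687, 1444 and 1230.2 CPM in ARG1+ and 1178, 1310.2, 1296, 1231 and 1115 CPM in ARG1- libraries. It was higher in ARG1+ cells in 5 of 5 animals with overlap between groups, by 0.26 on the log2 scale (SE 0.0870, FDR = 0.0660). It was called with the block (FDR = 0.00133) and by DESeq2. *Jun* (ENSMUSG00000052684), the namesake partner of FOS, gave 223, 289.6, 308, 247 and 251.5 CPM in ARG1+ and 253, 274, 404, 283 and 252.3 CPM in ARG1- libraries. Its highest value was the ARG1- library of m234, the library with the lowest total and the highest microglia marker sum, and the ARG1+ library was the lower one in 4 of 5 animals, although in m236 the values were close. The log2 difference was -0.15 (SE 0.133, FDR = 0.479, with the block FDR = 0.107), and -0.0069 without the ARG1- library of m234.

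The log2 ratio of *Fos* to *Jun* CPM was higher in the ARG1+ library of every animal, by 0.25 to 0.87, and that of *Junb* to *Jun* by 0.15 to 0.77. These ratios within a library do not depend on library size, and their difference between groups does not depend on gene length. They restate the differences of the single genes given above and are no separate result, which also holds for the EGR ratios below. The ratio of *Fosb* to *Fos* was higher in ARG1+ cells in 2 of 5 animals, with differences from -0.18 to 0.024. The largest *Fos* to *Jun* difference belonged to m234, the animal with the high *Jun* value.

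The EGR genes encode zinc finger factors that bind GC-rich DNA. *Egr2* (ENSMUSG00000037868) gave 193, 159, 186, 132 and 134 CPM in ARG1+ and 137, 118, 142, 125 and 117 CPM in ARG1- libraries. It was higher in ARG1+ cells in 5 of 5 animals, with the largest gaps in m2 and m6 and the smallest in m235, and the groups overlapped. The log2 fold change was 0.34 (SE 0.112, FDR = 0.0687 without and 0.00238 with the block). *Egr1* (ENSMUSG00000038418), the most widely studied gene of the family, gave 169, 132, 217, 121 and 103 CPM in ARG1+ and 151, 110.3, 323, 111 and 92.7 CPM in ARG1- libraries. The ARG1+ library was higher in 4 animals and lower in m234, and the groups overlapped. The fitted difference was -0.075 (SE 0.322, FDR = 0.903), 0.025 with the block (FDR = 0.876), and 0.35 without the ARG1- library of m234 (FDR = 0.279). With the block and without both libraries of m234 it was 0.17 with an FDR of 0.00161, so that its direction without the block and its call with the block both changed with m234.

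*Egr3* (ENSMUSG00000033730) was the least abundant member, with 26.9, 26.01, 27.4, 14.4 and 27.9 CPM in ARG1+ and 32.0, 24.1, 59.6, 15.8 and 32.8 CPM in ARG1- libraries. Both libraries of m235 were the lowest of their group, and the ARG1- library of m234 was the highest. The log2 difference was -0.39 (SE 0.292, FDR = 0.402, with the block FDR = 0.0997), lower in ARG1+ in 4 of 5 animals, and -0.094 without the ARG1- library of m234. The log2 ratio of *Egr2* to *Egr3* was higher in ARG1+ cells in 5 of 5 animals (by 0.22 to 1.51) and that of *Egr2* to *Egr1* in 4 of 5 (-0.046 to 0.97).

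*Nr4a1* (ENSMUSG00000023034), an orphan nuclear receptor of myeloid and lymphoid cells, gave 709.8, 585, 735, 513 and 480.5 CPM in ARG1+ and 599, 489, 614, 466 and 435 CPM in ARG1- libraries. In each animal the ARG1+ library was higher, but the animals differed more than the groups did, with m2 and m234 high in both groups and m236 lowest in both. The log2 fold change was 0.22 (SE 0.136, FDR = 0.310) without the block and 0.21 (SE 0.0374, FDR = 0.00206) with it. *Ier2* (ENSMUSG00000053560), a short nuclear regulator of less settled function, gave 85.9, 81.5, 110.0, 83.7 and 62.1 CPM in ARG1+ and 96.2, 83.6, 125, 91.6 and 71.1 CPM in ARG1- libraries. It was the member lower in ARG1+ cells in 5 of 5 animals, with overlapping groups. The log2 difference was -0.14 (SE 0.157, FDR = 0.601), -0.14 with the block (SE 0.0361, FDR = 0.0135, or 0.0578 without m2), and -0.014 without the ARG1- library of m234 and without the block.

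*Dusp1* (ENSMUSG00000024190), the phosphatase that acts on p38 and JNK, gave 747, 856, 976, 903 and 818 CPM in ARG1+ and 695, 773, 823, 806 and 747 CPM in ARG1- libraries. The ARG1+ library was higher in 5 of 5 animals and the groups overlapped. The log2 fold change was 0.16 (SE 0.0783, FDR = 0.188), and 0.16 with the block (SE 0.0371, FDR = 0.00874). Being higher in all 5 animals held for 6 of the 10 members and for 20.0% of tested genes, and being lower in all 5 held for 1 member and for 21.0%. The members took 0.527 to 0.666% of all counts in ARG1+ and 0.471 to 0.575% in ARG1- libraries.

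**Figure D2:**
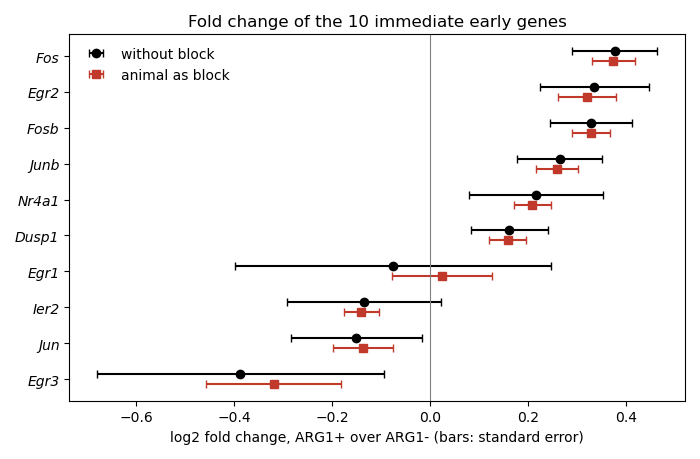
Log2 fold change of ARG1+ over ARG1- cells with a standard error derived from edgeR's F statistic, without the animal as a block (circles) and with it (squares). The estimates lie close together, except that *Egr1* crosses 0, while the standard errors shrink, for *Nr4a1* from 0.136 to 0.0374.

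Per length, in TPM computed from the counts and merged exon lengths, the members ranged from 1756 ± 198 TPM for *Junb* to 12.9 ± 3.001 TPM for *Egr3* in ARG1+ cells (SD, n = 5). *Junb* ranked 58 of 13740 tested genes by mean TPM, and *Fosb*, *Fos* and *Dusp1* followed at 169, 172 and 181. In ARG1+ cells these 3 had 857 ± 66.6, 864 ± 88.9 and 781 ± 68.8 TPM and in ARG1- cells 697 ± 48.6, 680.3 ± 53.9 and 714 ± 38.2 TPM. Their ranges overlapped in both groups, so the order among the 3 is not larger than the spread, and *Fos* was above *Dusp1* in 5 of 5 ARG1+ libraries and in 0 of 5 ARG1- libraries. *Nr4a1* (rank 345) was clear of its neighbors in both groups. *Jun* (849), *Ier2* (1308), *Egr2* (1713) and *Egr1* (2221) came next, and *Ier2* and *Egr2* in ARG1+ cells, *Jun* and *Ier2* in ARG1- cells, and *Egr2* and *Egr1* in both groups overlapped. *Egr3* (7198) was below all other members in every library.

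Much of the members' spread was shared by both libraries of an animal. The SD of log2 CPM within groups had a median of 0.221 over the members, against 0.113 over 5605 tested genes at or above the mean CPM of the lowest member, and all 10 members were above that median. After the mean deviation of each animal was removed, the median SD of the members was 0.0646 against 0.0664 for the same genes, and 5 of 10 members were above. *Egr1* and *Egr3* had the highest SDs, 0.589 and 0.571, and without the ARG1- library of m234 their order turned, with 0.373 and 0.443. *Dusp1* had the smallest, 0.123. *Ier2* went from 0.295 to 0.0446 and *Nr4a1* from 0.249 to 0.0442 when the animal was removed, whereas *Egr1* and *Egr3* kept 0.240 and 0.329.

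**Figure D3:**
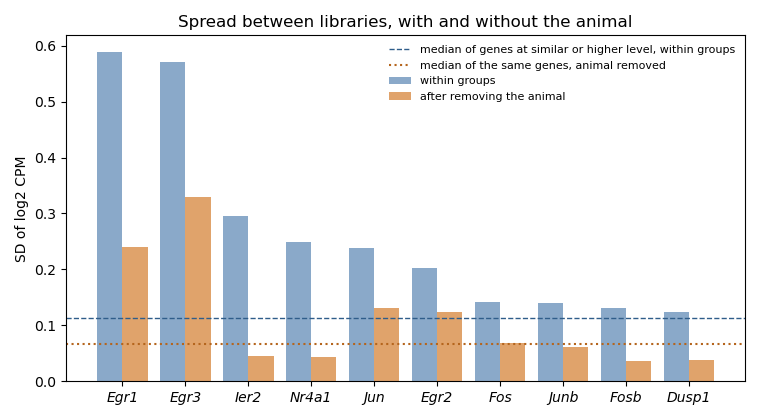
SD of log2 CPM of each member within groups and after removal of the animal, as bars from 0. Lines give the medians of the 5605 tested genes at or above the mean CPM of the lowest member, *Egr3*. These genes were not matched in level to the more abundant members. All 10 bars within groups pass the dashed line, and 5 of 10 bars without the animal pass the dotted line.

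The mean standardized deviation of the members from their group means was highest in both libraries of m234 (1.198 in ARG1+ and 1.21 in ARG1-) and lowest in both of m236 (-0.86 and -0.67). The members did not all vary together. Over the 10 libraries, which share 5 animals, the 45 pairs of members had Pearson correlations of their deviations from -0.54 to 0.94 with a median of 0.51, given as a description. *Egr2* with *Nr4a1* (0.94), *Egr1* with *Ier2* (0.91) and *Egr1* with *Nr4a1* (0.85) were high, as was *Fos* with *Dusp1* (0.84). *Fosb* went with *Dusp1* (0.80) but against *Egr2* (-0.54), *Nr4a1* (-0.53) and *Egr3* (-0.53), and m2 was low for *Fosb* and high for *Nr4a1*. Without the ARG1- library of m234 the median was 0.39, *Jun* with *Egr1* went from 0.74 to 0.26, and *Egr1* with *Nr4a1* from 0.85 to 0.97.

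**Figure D4:**
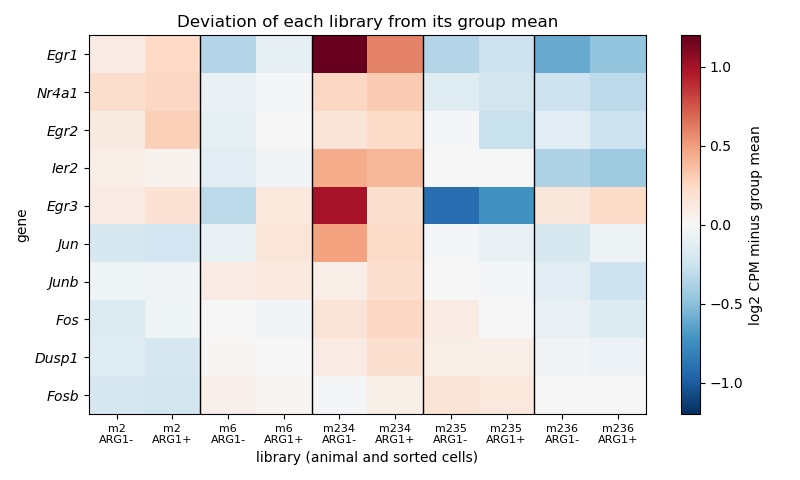
Log2 CPM of each member minus the mean of its group, by library, with the libraries of an animal side by side and a color scale symmetric around 0. Both libraries of m234 are mostly red and those of m236 mostly blue, and m2 is red for the EGR genes and *Nr4a1* but blue for *Fosb*.

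The tested genes outside the set whose deviations were most like the members' mean over the 10 libraries were *Traf5*, *Zrsr2*, *Kcmf1*, *Nuak2* and *Lrch1*, with Pearson's r of 0.978, 0.965, 0.964, 0.964 and 0.963. The 5 had log2 fold changes of -0.18, -0.20, -0.032, -0.11 and -0.31, and of them *Lrch1* (FDR = 0.0284 by edgeR) was called without the block. With the block *Traf5* (FDR = 0.0335), *Zrsr2* (0.00370), *Nuak2* (0.0373) and *Lrch1* (2.54e-04) were called lower. They were chosen as the highest of all tested genes, so the values are a description.

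The relatives of the members were read from lists of general knowledge, which were chosen with earlier results of these data known. For this and all lists below, 6.82% of all tested genes were called higher and 6.15% lower without the block. With the block these shares were 16.8% and 18.3%. Of 12 AP-1 relatives, 0 were called higher and 3 lower in ARG1+ cells. They were *Jund* (-0.32, FDR = 0.00911 by edgeR), a JUN gene that is less dependent on stimulation, *Batf3* (-0.93, FDR = 0.0302), which is needed for a class of dendritic cells, and *Batf2* (-0.58, FDR = 0.0317). The dendritic cell markers fell in the same direction, and their part was not tested. *Jund* gave 314, 377, 359, 399 and 361 CPM in ARG1+ and 429, 453, 475, 446 and 459 CPM in ARG1- libraries, without overlap. *Fosl2*, the most abundant relative, was higher in 5 of 5 animals by 0.20 (FDR = 0.133, 0.00578 with the block). With the block, 1 relative was called higher and 7 lower.

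Of 4 tested EGR and NR4A relatives and EGR corepressors, 0 were called higher and 2 lower, and both were corepressors that bind EGR proteins. *Nab2* gave 62.8, 65.0, 61.8, 49.6 and 58.1 CPM in ARG1+ and 82.7, 90.4, 104, 73.8 and 79.8 CPM in ARG1- libraries, without overlap, and fell by 0.53 on the log2 scale (SE 0.0967, FDR = 0.00508 by edgeR). *Nab1* fell by 0.23 (FDR = 0.0209), and *Nr4a3*, the most abundant gene of the list, had 0.023 (FDR = 0.901). With the block 1 gene was called higher and 2 lower, and the 1 was *Nr4a2*, named here after its values were seen, a relative of *Nr4a1* that was higher in 5 of 5 animals by 0.29 (FDR = 0.0599 without and 6.98e-04 with the block). Among 8 other DUSP phosphatases, 0 were called higher and 1 lower, *Dusp16* (-0.44, FDR = 0.00143), which acts on JNK and p38. The most abundant, *Dusp5*, had 0.069 (FDR = 0.446), and the list had 4 genes lower and 0 higher with the block.

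Of 24 other immediate early genes, 2 were called higher and 2 lower, where 6.82% and 6.15% of all tested genes were. With the block 8 were called higher and 7 lower, where 16.8% and 18.3% were. *Ier3*, a survival gene, rose by 0.56 (FDR = 0.00548 by edgeR) from 314 ± 36.4 to 463 ± 60.8 CPM (SD, n = 5), without overlap. *Sgk1*, a kinase gene, rose by 0.45 (FDR = 0.00794). *Klf2*, a factor that restrains myeloid activation, had -0.92 (FDR = 0.0387), or -0.55 (FDR = 0.0110) without the ARG1- library of m234, which had 161 CPM against 52.1 to 75.3 CPM in the others of its group. *Ier5*, which was chosen after its values were seen, had -0.37 (FDR = 0.0289). *Mcl1*, the most abundant, had -0.026 (FDR = 0.830). The median log2 fold change of the list was -0.046.

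Upstream, the 17 genes of the MAP kinase cascade held 0 called higher and 2 called lower, the p38 activator *Map2k3* (-0.33, FDR = 0.00307 by edgeR) and the p38 substrate *Mapkapk2* (-0.23, FDR = 0.0255), with a list median of 0.0034 and 2 higher and 5 lower with the block. Of 11 factors that act at immediate early promoters, *Mrtfb*, a coactivator of serum response factor, was called higher (0.48, FDR = 0.00338) and *Creb1* lower (-0.35, FDR = 0.0152), while *Crem*, the most abundant, had 0.12 (FDR = 0.183). With the block 3 were called higher and 4 lower, and *Crem*, higher in 5 of 5 animals, was among them (FDR = 0.0378). *Creb1* gave 68.3, 60.0, 71.8, 61.2 and 58.7 CPM in ARG1+ and 83.5, 78.6, 95.1, 79.2 and 72.5 CPM in ARG1- libraries, without overlap. Of 5 Sprouty and Spred genes, which restrain growth factor signals, *Spry2* was called higher (0.92, FDR = 4.62e-04), and *Spred1*, the most abundant, had -0.16 (FDR = 0.154).

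**Figure D5:**
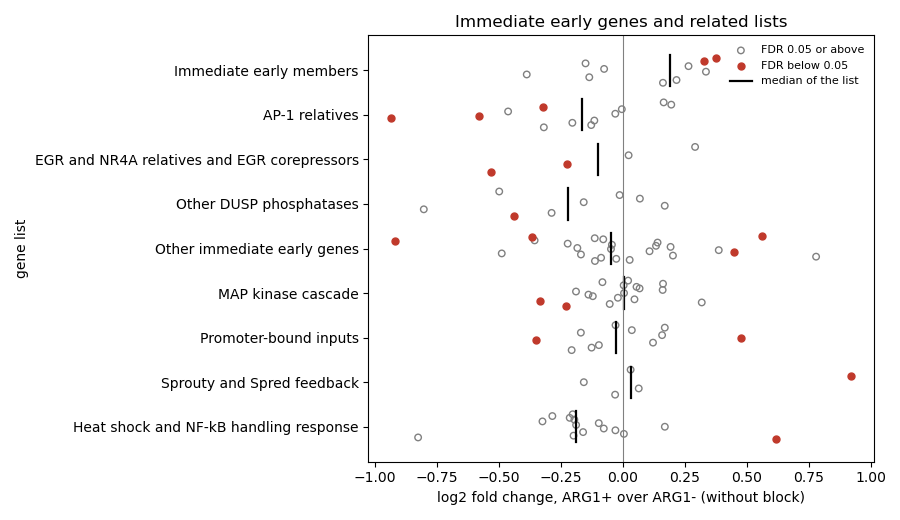
Log2 fold change, ARG1+ over ARG1-, of each tested gene in the members and 8 related lists, without the block, with filled points for genes at an FDR below 0.05 and a bar at the list median. The members have a median of 0.19, the AP-1 relatives of -0.17 and the other DUSP phosphatases of -0.22.

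The list of heat shock and NF-kB genes that are also known to rise while tissue is dissociated held 15 tested genes. Of these, 1 was called higher, the chemokine gene *Cxcl2* (0.62, FDR = 0.00538 by edgeR), and 0 lower, and with the block 2 were higher and 7 lower. *Hspa8*, the most abundant gene of the list, had -0.21 (FDR = 0.0665, 0.00185 with the block), and the median of the list was -0.19. The median of the members, 0.19, was on the other side of 0, and the part of cell handling in either list was not tested.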

How the data were processed

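Per the labels and the study's methods, the authors read 50 bases from 1 end of strand-specific libraries, aligned them to GRCm38 with STAR 2.7.10b (submitters' processing notes) and Ensembl release 100, and deposited whole-number counts per gene, made in the Union mode of summarizeOverlaps and summed over transcripts without normalization. The sources used here do not give the strand setting of the counting. No per-sample column of the table was left out. The study's methods name limma-trend, and keep genes whose CPM exceeds 1 in 3 or more libraries.

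Here, edgeR 4.0.16 (R 4.3.3; quasi-likelihood test, TMM library sizes, the same filter) compared 5 ARG1+ with 5 ARG1- libraries at a Benjamini-Hochberg FDR below 0.05 over 13740 genes. Alternatives were the animal as a replicate block, DESeq2 1.42.0, limma-trend (limma 3.58.1; prior count 2 or 0.5), other filters and library sizes, and leaving out each library or animal. The block with an animal left out was added after the data were seen. The libraries of the same animal carry the same number in the labels, and their deviations from the group means correlated at 0.361 to 0.664 across genes, against -0.367 to 0.0675 between different animals, where genes are not independent replicates. Counts of libraries within a group differed beyond sampling noise, with chi-square values of 17.8 to 71.7 per degree of freedom. Single genes were tested by a 2-sided exact permutation test (smallest p 0.00794). The SE of an edgeR log2 fold change was not fitted directly. It was derived as the absolute log2 fold change divided by the square root of the F statistic. Log2 CPM used a prior count of 2. TPM used merged exon lengths of a GENCODE basic annotation of the same build, matched for 55141 of 55487 genes.

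On simulated counts of 13740 genes, the edgeR test without the block recovered 85 of 100 genes changed by 1 and 97 of 100 changed by 2 on the log2 scale, with 7 false calls. With the block it recovered 79 and 98 with 10 false calls, and DESeq2 recovered 89 and 97 with 30. The simulated libraries were drawn independently, without an effect shared by the libraries of an animal, and no change smaller than 1 was simulated. How the tests perform on paired libraries or at changes as small as the members' was therefore not shown. At the lowest depth 1 CPM was 8.40 counts. The members and lists were chosen with earlier results of these data known. Genes were named as follows: all members, the most abundant gene and up to 3 called genes of each list, the 5 genes most like the members, *Arg1* and the most abundant marker. Of the 50-base stretches of *Jun* 5.83% were shared with *Junos* and of *Junb* 5.77% with *Prdx2*, and these values are uncertain to that extent.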

Additional observations from a re-analysis of the deposited data

Results flagged for a closer look

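Within the 20 groups of 5 libraries formed by the 10 genes, 2 libraries stood apart from the others of their group by Dixon's ratio of gap to range on log2 CPM, where chance gives about 1 in 20 groups. The ARG1- library of m234 was the highest for *Jun*, with a ratio of 0.757 (404 CPM, with the others at 252.3 to 283 CPM). The ARG1+ library of m235 was the lowest for *Egr3*, with a ratio of 0.893 (14.4 CPM, with the others at 26.01 to 27.9 CPM).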

How the results depend on the processing

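The count of 2 members higher and 0 lower was the same with other library sizes, filterByExpr and limma-trend, and 3 and 0 without a filter. The replicate block for the animal gave 6 and 1, DESeq2 gave 4 higher, and the fold limit left 0. Leave-outs gave 0 to 4 higher and 0 lower, and with the block 6 to 7 higher and 0 to 2 lower. The count was 0 without m6, 1 without m2, m234 or m236 or a single library (ARG1+ of m6 or ARG1- of m2), and 4 without ARG1+ of m236. With the block, 7 were higher without m234, and 0 were lower without m2 and 2 without m6. *Egr1* turned positive with the block (0.025) and limma-trend (0.023 and 0.024), and ranged from -0.25 to 0.35 over leave-outs, with 0.17 without m234 in either fit and 0.0041 with the block without m235. *Nr4a3* turned negative with total counts (-0.018), ranged from -0.042 to 0.095 over leave-outs, and was -0.031 without m234 and -0.033 with the block as well. *Mcl1* ranged from -0.064 to 0.013. Over the 28 alternatives, the calls of *Batf2* (10), *Klf2* (9), *Mapkapk2* (9), *Batf3* (8), *Ier5* (7), *Nab1* (6), *Creb1* (2) and *Sgk1* (2) were lost in the number of settings in parentheses. The cause was not tested. Ranked by CPM without length, *Egr1* was above *Ier2* and *Dusp1* above *Fos*, and *Fosb* (1350.8 CPM) and *Junb* (1349.7 CPM) were level, with *Fosb* higher in ARG1+ cells and *Junb* higher in ARG1- cells.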
